A study of Mus musculus with 14 samples.

Results

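The mRNA levels of 10 genes that write, bind or erase the polycomb marks were followed in male germ cells of postnatal mouse testis. The 10 were taken by name from the 24340 genes listed in every library: Ezh1, Ezh2, Eed, Suz12 and Jarid2 of polycomb repressive complex PRC2, Kdm2b, Bmi1 and Rnf2 of PRC1, and the H3K27 demethylases Kdm6a and Kdm6b. All 10 passed the filter on low values. The study deleted Jmjd1a and Jmjd1b, named Kdm3a and Kdm3b in the files, which encode demethylases of histone H3 lysine 9. The 14 libraries, all from C57BL/6 mice, form 7 groups with 2 replicates in each. The P7 DKO group carries Vasa-Cre, Jmjd1a-/- and Jmjd1b-/- at postnatal day 7, and its control, P7 Ctrl, carries Vasa-Cre with Jmjd1a-/+ and Jmjd1b-/+ at the same age. At postnatal day 3 the P3 DKO group again carries Vasa-Cre, Jmjd1a-/- and Jmjd1b-/-. The P3 Jmjd1aKO group carries Vasa-Cre with Jmjd1a-/- and Jmjd1b-/+, the P3 Jmjd1bKO group Vasa-Cre with Jmjd1a-/+ and Jmjd1b-/-, and P3 Ctrl Vasa-Cre with Jmjd1a-/+ and Jmjd1b-/+. The P3 WT group is labelled wild type, so P3 Ctrl and P7 Ctrl, unlike P3 WT, carry the Cre and are heterozygous for both genes. Vasa-Cre is a Cre recombinase under the promoter of a germ cell gene. Whether other cells also carry deleted alleles was not tested. The labels do not say whether 2 replicates are separate animals, and p-values therefore measure the spread between these samples, which may be technical.

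PRC2 places methyl groups on lysine 27 of histone H3 through one of its catalytic subunits, EZH1 or EZH2, which work only in a complex with EED and SUZ12. PRC1 places ubiquitin on histone H2A through RNF2 or its paralogue RING1, paired with a PCGF protein such as BMI1, and KDM2B brings a variant form of PRC1 to unmethylated CpG islands. KDM6A and KDM6B remove the methyl groups of lysine 27, and in male germ cells polycomb complexes hold somatic developmental genes silent.

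Promoter sequences of 9 of the 10 members were found in RefSeq on build GRCm38.p6, each running from 250 bases before to 50 bases after a transcript start. The promoters of Ezh2 and Suz12 are shown because their mRNA levels were among those that differed between P7 DKO and P3 DKO. These promoters were also the only 2 of the 9 with an E2F motif. Those of Eed and Kdm6a, which rose in the same comparison, and of Ezh1 and Kdm2b, which fell, held none. Genes of S phase, many of which are E2F targets, also moved there, and the part of the motif was not tested. The motif was searched on both strands as TTTCCCGC, TTTCGCGC, TTTGCCGC or TTTGGCGC and was chosen with these results known. It is in capitals on whichever strand it lies, and 742 of 32817 RefSeq promoters, or 2.26%, held one. Each form of the motif contains a CpG. The Ezh2 and Suz12 promoters hold 31 and 41 CpG dinucleotides, against a median of 7 over all promoters. The share with a motif among promoters as rich in CpG was not tested. A match describes the letters only. The Ezh2 promoter lies at chr6:47594981-47595280 on the minus strand and the Suz12 promoter at chr11:79992856-79993155 on the plus strand.
Ezh2: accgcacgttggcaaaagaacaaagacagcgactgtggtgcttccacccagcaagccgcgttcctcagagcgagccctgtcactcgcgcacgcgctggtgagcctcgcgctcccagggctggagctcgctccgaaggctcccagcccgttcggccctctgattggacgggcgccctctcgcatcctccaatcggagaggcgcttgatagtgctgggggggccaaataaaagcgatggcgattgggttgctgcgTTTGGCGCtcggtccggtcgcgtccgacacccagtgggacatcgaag
Suz12: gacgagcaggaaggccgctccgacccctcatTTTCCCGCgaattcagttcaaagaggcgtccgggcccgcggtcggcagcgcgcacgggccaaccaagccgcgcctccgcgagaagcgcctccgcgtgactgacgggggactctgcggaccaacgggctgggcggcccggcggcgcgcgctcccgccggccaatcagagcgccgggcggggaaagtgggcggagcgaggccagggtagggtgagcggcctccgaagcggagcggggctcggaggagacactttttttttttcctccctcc
Kdm2b, the member with the largest change between P7 DKO and P7 Ctrl among those called, has start sites in 2 parts of the gene, and RPKM per gene adds their transcripts together. A start at the 5′ end gives the long form with the demethylase domain, and an internal start gives a shorter form that keeps the CpG-binding zinc finger but lacks that domain. An upstream promoter at chr5:122989050-122989349 and the internal promoter at chr5:122900318-122900617, both on the minus strand, are shown with each CpG dinucleotide in capitals. They hold 28 and 47 CpG dinucleotides, against a median of 7 over all 32817 promoters.
Kdm2b, upstream start: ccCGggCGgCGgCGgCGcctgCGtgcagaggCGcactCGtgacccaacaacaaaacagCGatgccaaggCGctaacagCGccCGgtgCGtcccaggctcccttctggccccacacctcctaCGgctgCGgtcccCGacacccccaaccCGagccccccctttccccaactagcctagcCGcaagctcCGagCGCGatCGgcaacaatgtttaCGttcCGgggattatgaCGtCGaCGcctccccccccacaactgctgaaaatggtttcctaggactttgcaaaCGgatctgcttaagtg
Kdm2b, internal start: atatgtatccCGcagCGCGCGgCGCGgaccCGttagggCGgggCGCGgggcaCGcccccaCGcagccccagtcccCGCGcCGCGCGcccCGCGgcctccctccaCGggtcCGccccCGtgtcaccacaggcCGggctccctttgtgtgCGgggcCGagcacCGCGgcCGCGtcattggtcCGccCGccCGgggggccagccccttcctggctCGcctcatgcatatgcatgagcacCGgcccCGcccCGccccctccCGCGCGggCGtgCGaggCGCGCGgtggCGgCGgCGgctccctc

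Values are the authors' RPKM, which are scaled by transcript length and by the size of the library, so that levels can be set side by side between genes. Depth, estimated from the deposited values, ran from 13.6 to 51.3 M fragments per library and was lowest in the 2 P3 WT libraries. Kdm6a, the lowest member, still rested on at least 88.0 fragments per kb. The deleted genes were at 8.97 and 7.59 RPKM for Kdm3a in the P7 DKO libraries, against 27.2 and 27.1 RPKM in P7 Ctrl, and at 12.1 and 14.3 RPKM in P3 DKO, against 28.4 and 26.3 RPKM in P3 Ctrl. Kdm3b was at 6.49 and 6.73 RPKM in P7 DKO, against 17.3 and 16.1 RPKM in P7 Ctrl, and at 4.26 and 4.48 RPKM in P3 DKO, against 10.2 and 13.5 RPKM in P3 Ctrl. The 8 germ cell markers summed to between 1217 and 1632 RPKM in every library, so the labelled germ cells were present in each. In the replicates numbered 2 of the single knockouts, the 9 Sertoli cell markers summed to 770 RPKM for P3 Jmjd1aKO and 946 RPKM for P3 Jmjd1bKO, while in the other libraries they summed to 37.3 to 213 RPKM. In P7 DKO, replicate 2 had a median log2 level 0.31 lower than replicate 1 over 464 transcripts longer than 8000 nt and 0.13 higher over 1561 transcripts of 1000 to 2000 nt, while in the other groups both medians lay within 0.1 of 0. Values without these libraries are given beside the results they touch.

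Kdm2b was the most abundant member. Averaged over the 14 libraries it reached 88.5 RPKM, followed by Jarid2, a PRC2 cofactor that helps the complex dock on chromatin, at 62.8 RPKM, Ezh1 at 54.4 RPKM, Eed at 48.9 RPKM and Suz12 at 44.6 RPKM. Rnf2 averaged 38.6 RPKM, Bmi1 36.4 RPKM, Ezh2 28.1 RPKM and Kdm6b 22.3 RPKM. Kdm6a came last at 6.39 RPKM. Kdm2b stood first in each group other than P7 DKO, although in P3 Jmjd1bKO it overlapped with Jarid2. In P7 DKO, Eed at 57.0 ± 7.14 RPKM, Kdm2b at 53.5 ± 10.01 RPKM and Suz12 at 52.2 ± 8.30 RPKM overlapped (mean ± SD, n = 2). Kdm6a stood last in all 7 groups. Among libraries Ezh2 varied most, with a highest value 3.02 times the lowest, and Rnf2 least, with a ratio of 1.42.

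**Figure D1:**
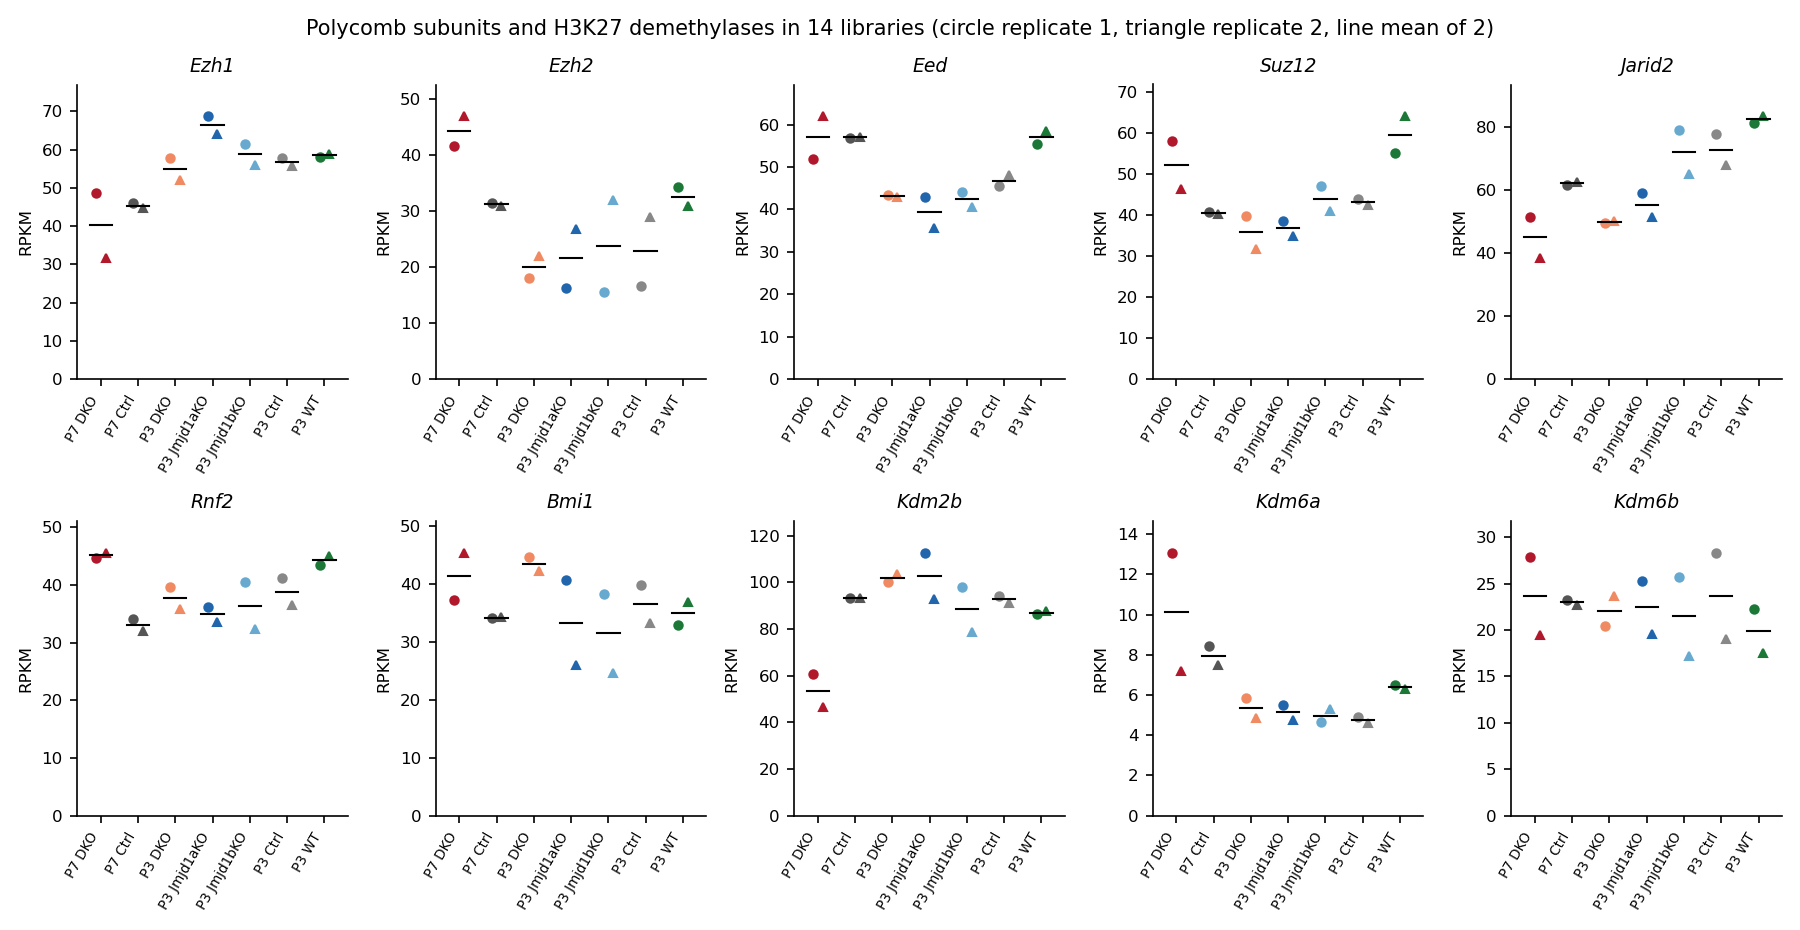
RPKM of each of the 10 members in each library, 1 panel per gene, with groups from P7 DKO on the left to P3 WT on the right. Circles are replicate 1, triangles replicate 2 and lines the group mean. Kdm2b lies at 60.5 and 46.4 RPKM in P7 DKO, below every other library, and Ezh2 lies at 41.7 and 47.0 RPKM there, above every other library.

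At postnatal day 7 the loss of both demethylases went with lower Kdm2b and Jarid2 and higher Rnf2. These were the 3 of 10 members past a Benjamini-Hochberg adjusted p of 0.05 in limma, fitted on log2(RPKM + 1) across all 14772 tested genes. In the same comparison 33.5% of all tested genes passed, so the members' share is close to the background. The members' median log2 change was 0.14, against 0.02 over all tested genes. In bulk RNA of this kind, fewer cells of a type and less RNA per cell cannot be told apart.

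Kdm2b had 60.5 and 46.4 RPKM in the P7 DKO libraries, against 93.4 and 93.1 RPKM in the P7 Ctrl libraries. Both P7 DKO libraries lay below both controls, by more than the gap between the P7 DKO replicates. The means were 53.5 ± 10.01 RPKM in P7 DKO and 93.2 ± 0.2003 RPKM in P7 Ctrl (SD, n = 2 each), a log2 change of -0.80 ± 0.14 (SE) with an adjusted p of 0.00237 in limma. The call held under every alternative tried, and leaving out 1 library at a time gave changes between -0.99 and -0.61. Exons of Kdm2b (chr5:122870665-122989823, minus strand, GRCm38) overlap those of Rnf34 and of the antisense gene A930024E05Rik on the opposite strand and those of Gm44574 on the same strand, and no source used here states whether strand was used in counting. Rnf34 averaged 59.0 ± 1.85 RPKM in P7 DKO and 51.0 ± 2.17 RPKM in P7 Ctrl, and A930024E05Rik 0.854 ± 0.196 RPKM in P7 DKO and 1.58 ± 0.0190 RPKM in P7 Ctrl.

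Rnf2, a catalytic ubiquitin ligase of PRC1, had 44.8 and 45.6 RPKM in P7 DKO, against 34.1 and 32.1 RPKM in P7 Ctrl. The groups did not overlap, and the gap between them exceeded the spread within each. The log2 change was 0.44 ± 0.12 (adjusted p = 0.0163, limma). Without P7 DKO replicate 2 the adjusted p became 0.0690, and without P7 Ctrl replicate 1 or 2 it became 0.0604 or 0.105. Trmt1l, whose exons overlap those of Rnf2 on the opposite strand, averaged 14.3 ± 5.61 RPKM in P7 DKO and 10.2 ± 0.163 RPKM in P7 Ctrl. Bmi1, the ring finger partner, had 37.2 and 45.4 RPKM in P7 DKO, against 34.0 and 34.2 RPKM in P7 Ctrl, and did not pass.

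Jarid2 had 51.5 and 38.6 RPKM in P7 DKO, against 61.7 and 62.6 RPKM in P7 Ctrl. Both P7 DKO libraries were below both controls, but they also differed widely from each other, with replicate 2 the lower. The log2 change was -0.47 ± 0.14 (adjusted p = 0.0297, limma). Without P7 DKO replicate 2 it was -0.27 with an adjusted p of 0.205, and without P7 Ctrl replicate 1 or 2 the adjusted p was 0.112 or 0.125. Fitted on the 4 libraries of this comparison alone, it was 0.0635. The longest annotated Jarid2 transcript has 8353 nt, in the length class that was low in P7 DKO replicate 2, and the part of transcript length in the result was not tested.

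The enzymatic core of PRC2 did not pass at postnatal day 7. Ezh2 had 41.7 and 47.0 RPKM in P7 DKO, against 31.5 and 31.0 RPKM in P7 Ctrl, with no overlap (adjusted p = 0.303, limma). Ezh1, the catalytic subunit typical of cells that divide little, had 48.7 and 31.6 RPKM in P7 DKO, on both sides of the 45.9 and 44.8 RPKM of P7 Ctrl. Without P7 DKO replicate 1, Ezh1 passed with a log2 change of -0.51 (adjusted p = 0.00690). Suz12 had 58.1 and 46.4 RPKM in P7 DKO, against 40.8 and 40.3 RPKM in P7 Ctrl, a log2 change of 0.35 (adjusted p = 0.0870) that passed without P7 DKO replicate 2 at 0.51 (adjusted p = 0.0476). Eed averaged 57.0 ± 7.14 RPKM in P7 DKO and 57.0 ± 0.0798 RPKM in P7 Ctrl. The mean log2 level of the 20 S phase genes was 6.36 and 6.31 in P7 DKO, against 6.04 and 6.03 in P7 Ctrl. The part of these genes in the member values at postnatal day 7 was not tested.

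The H3K27 demethylases did not pass either. Kdm6a, an X-linked gene, had 13.1 and 7.21 RPKM in P7 DKO, against 8.42 and 7.49 RPKM in P7 Ctrl, so its P7 DKO libraries lay on both sides of the controls. Without P7 DKO replicate 2 its log2 change was 0.66 (adjusted p = 0.0205). Kdm6b had 27.9 and 19.5 RPKM in P7 DKO, against 23.3 and 22.7 RPKM in P7 Ctrl, again on both sides.

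**Figure D2:**
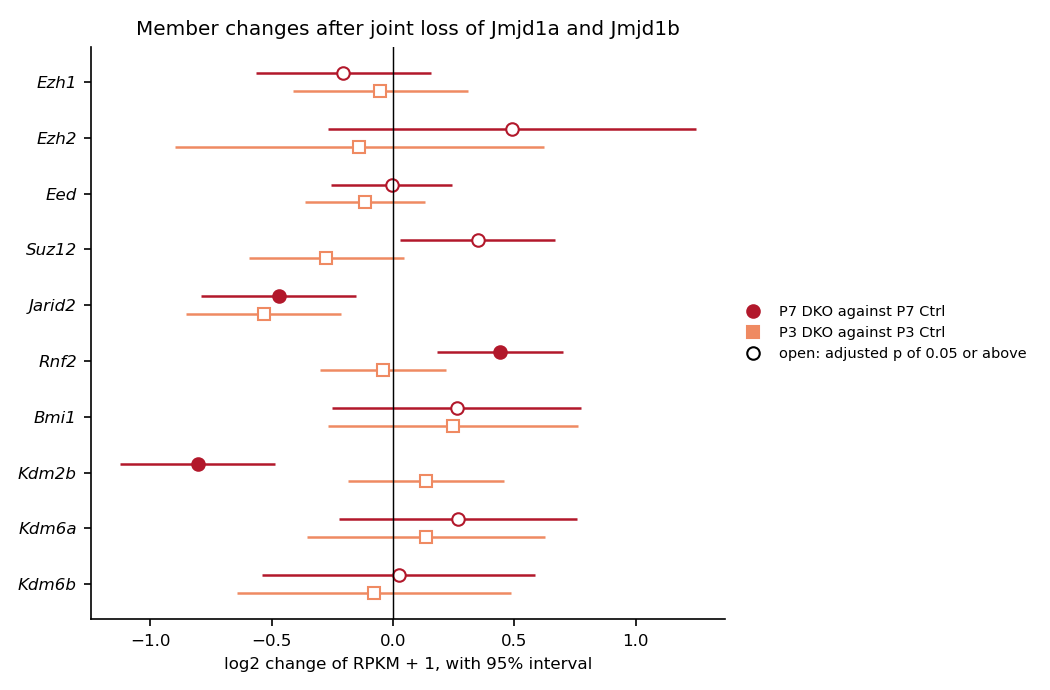
Log2 change on the log2(RPKM + 1) scale of each member, with 95% intervals from limma. The comparisons are P7 DKO against P7 Ctrl and P3 DKO against P3 Ctrl. Filled points passed an adjusted p of 0.05: Kdm2b, Jarid2 and Rnf2 in P7 DKO against P7 Ctrl. No member passed in P3 DKO against P3 Ctrl.

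The other genes of the same complexes were taken as lists of 8 PRC2 genes, 22 PRC1 genes, 5 genes of H2A deubiquitination and 8 KDM6 partners and other H3K27 demethylases. Of these 43 genes, 9 were higher and 7 lower in P7 DKO than in P7 Ctrl, against 17.4% of all tested genes called higher and 16.1% called lower. With 1 library of the comparison left out, 5 to 8 were higher and 4 to 7 lower. The 5 endothelial markers summed to 2.28 and 1.499 RPKM in P7 DKO, against 9.15 and 9.17 RPKM in P7 Ctrl, and the 7 stromal and peritubular markers to 6.84 and 6.19 RPKM in P7 DKO, against 19.1 and 19.0 RPKM in P7 Ctrl. The stromal difference lay in Col1a1, at 3.96 ± 1.61 RPKM in P7 DKO and 14.2 ± 0.151 RPKM in P7 Ctrl, and Pdgfra, at 1.14 ± 0.411 RPKM in P7 DKO and 3.99 ± 0.0318 RPKM in P7 Ctrl, while Col1a2, Dcn, Acta2 and Myh11, all under 1 RPKM, had higher means in P7 DKO. Of the 8 germ cell markers, Dazl was higher and Ddx4, Nanos2, Nanos3 and Sall4 lower. The part of these markers in the polycomb values was not tested.

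Among PRC2 genes, 3 rose, 1 fell and 4 did not pass, with a median log2 change of 0.23. Ezhip, listed under an older symbol and known from human cells and mouse gonads as an inhibitor of EZH2, had 48.1 and 59.3 RPKM in P7 DKO, against 13.9 and 13.9 RPKM in P7 Ctrl. The log2 change of 1.87 ± 0.14 (adjusted p = 2.66e-05) held without each library. Aebp2, an accessory subunit, had 25.1 and 28.6 RPKM in P7 DKO, against 14.9 and 15.7 RPKM in P7 Ctrl, a change of 0.77 ± 0.15 (adjusted p = 0.00336) that also held. Epop, which links PRC2 with elongin, averaged 18.8 ± 2.15 RPKM in P7 DKO and 13.0 ± 1.19 RPKM in P7 Ctrl, a change of 0.49 (adjusted p = 0.0355). Phf1, a Polycomb-like accessory subunit, averaged 11.9 ± 1.55 RPKM in P7 DKO and 20.9 ± 0.828 RPKM in P7 Ctrl, a change of -0.77 (adjusted p = 0.0340). The calls of Epop and Phf1 were lost without any single one of the 4 libraries, with adjusted p up to 0.194 and 0.146. All 4 genes had groups that did not overlap.

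Among PRC1 genes, 6 rose, 4 fell and 12 did not pass, with a median log2 change of -0.10. Cbx7, a chromobox protein that reads methylated lysine 27, had 9.20 and 7.38 RPKM in P7 DKO, against 24.4 and 24.7 RPKM in P7 Ctrl, a change of -1.47 ± 0.13 (adjusted p = 7.6e-05). Scmh1 averaged 33.3 ± 8.86 RPKM in P7 DKO and 62.9 ± 1.49 RPKM in P7 Ctrl (-0.92, adjusted p = 0.00136), and Phc1, a polyhomeotic subunit of canonical PRC1, 45.2 ± 10.2 RPKM in P7 DKO and 83.9 ± 0.430 RPKM in P7 Ctrl (-0.90, adjusted p = 0.00353). These 3 calls held without each library, and the P7 DKO libraries lay below the controls in each. Apobec3, which overlaps exons of Cbx7 on the opposite strand, averaged 0.586 ± 0.0174 RPKM in P7 DKO and 2.14 ± 0.0301 RPKM in P7 Ctrl, levels below those of Cbx7. Ring1, the paralogue of Rnf2, averaged 17.8 ± 2.37 RPKM in P7 DKO and 9.55 ± 0.250 RPKM in P7 Ctrl (0.83 ± 0.24, adjusted p = 0.0229). The Ring1 call was lost without P7 DKO replicate 2 (0.127) and without P7 Ctrl replicate 1 (0.0922) or 2 (0.107). Phc3 averaged 2.52 ± 0.132 RPKM in P7 DKO and 1.23 ± 0.151 RPKM in P7 Ctrl (0.66, adjusted p = 0.00627), and its adjusted p was 0.0629 without P7 Ctrl replicate 1.

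In the other lists 1 gene each fell, with median log2 changes of -0.11 for H2A deubiquitination and -0.12 for the KDM6 list. Asxl3, a partner of the H2A deubiquitinase BAP1, averaged 0.460 ± 0.0616 RPKM in P7 DKO and 1.30 ± 0.0981 RPKM in P7 Ctrl (-0.66, adjusted p = 0.0201), a call lost without each library, with adjusted p of 0.0503 to 0.115. Kmt2d, the H3K4 methyltransferase that works with KDM6A, averaged 7.83 ± 3.24 RPKM in P7 DKO and 13.2 ± 1.86 RPKM in P7 Ctrl (-0.73, adjusted p = 0.0470). Its P7 DKO replicates were at 10.1 and 5.54 RPKM. The longest annotated transcripts of Asxl3 and Kmt2d have 11697 and 19823 nt, in the length class that was low in P7 DKO replicate 2. The part of transcript length in both results was not tested. Without P7 DKO replicate 2 the Kmt2d change was -0.35 (adjusted p = 0.325), and without P7 Ctrl replicate 1 or 2 its adjusted p was 0.231 or 0.0925.

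**Figure D3:**
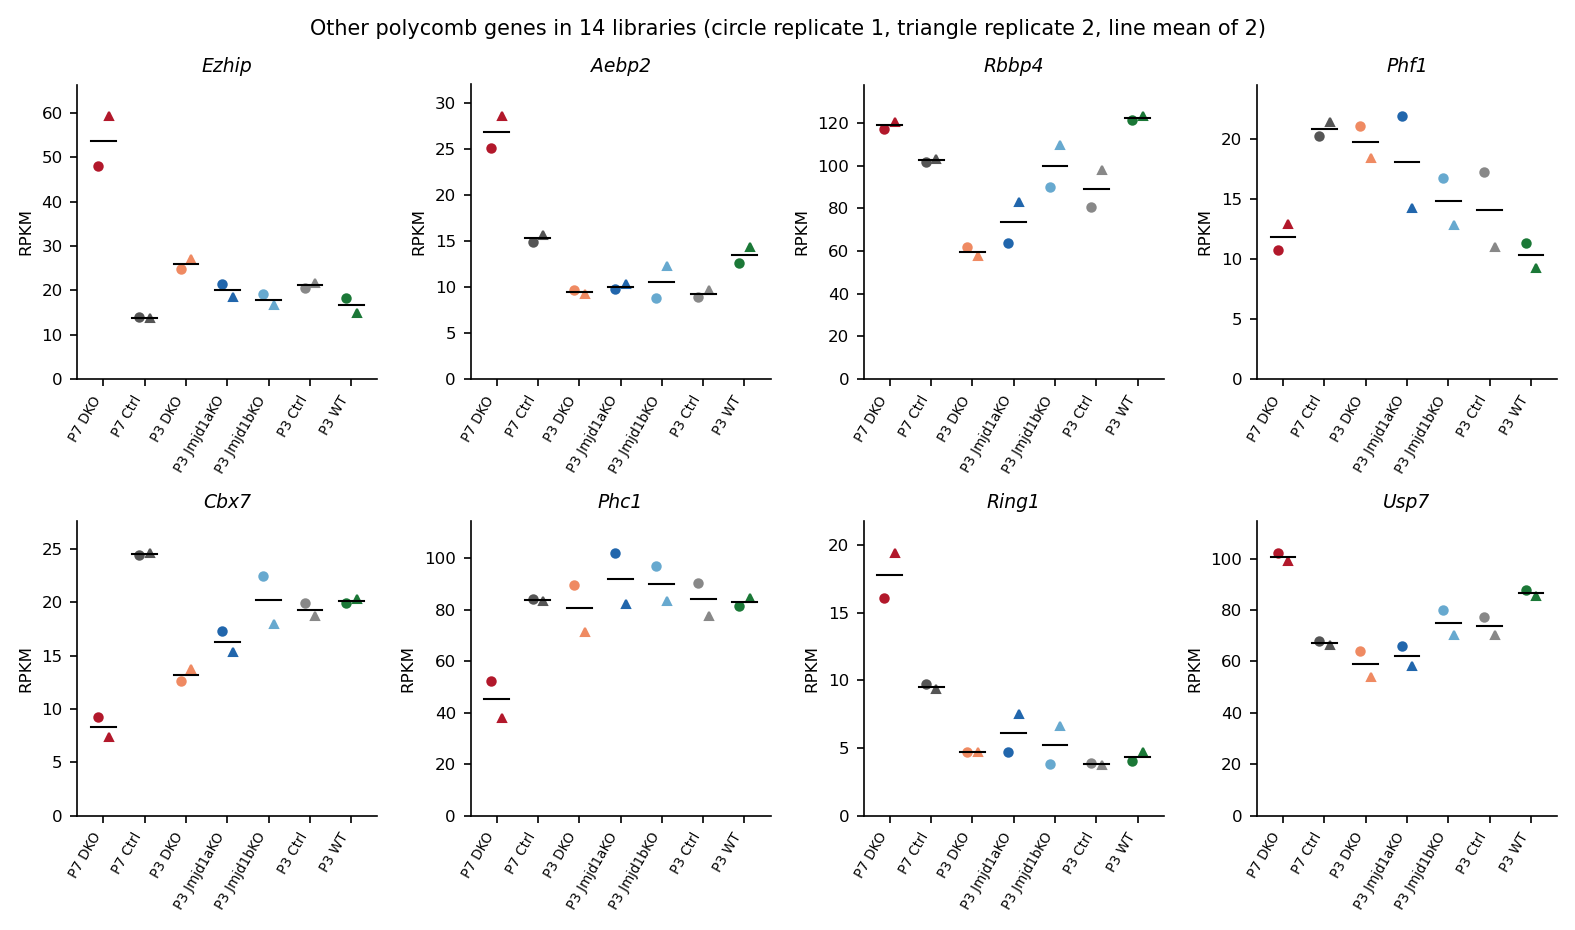
RPKM in each library of 8 genes of the same complexes that are not members, with groups from P7 DKO on the left to P3 WT on the right. Circles are replicate 1, triangles replicate 2 and lines the group mean. Ezhip lies at 48.1 and 59.3 RPKM in P7 DKO against 13.9 and 13.9 RPKM in P7 Ctrl, and Cbx7 at 9.20 and 7.38 RPKM in P7 DKO against 24.4 and 24.7 RPKM in P7 Ctrl.

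At postnatal day 3 none of the 10 members passed in P3 DKO against P3 Ctrl with limma, and 1 had an unadjusted p under 0.05. Over all tested genes 4.47% passed and 24.5% had such a p. The members' median log2 change was -0.07, against 0.01 over all tested genes. That member was Jarid2, with 49.7 and 50.1 RPKM in P3 DKO, against 77.7 and 67.9 RPKM in P3 Ctrl. The groups did not overlap, and the log2 change was -0.53 ± 0.14 (adjusted p = 0.0618). It passed with median centring (adjusted p = 0.0477) and without the pair of libraries high in Sertoli transcripts (0.0351). Ezh2 had 18.1 and 21.9 RPKM in P3 DKO, inside the 16.6 and 29.1 RPKM of P3 Ctrl. Suz12 had 39.8 and 31.7 RPKM in P3 DKO, against 43.9 and 42.5 RPKM in P3 Ctrl, and Kdm2b 100.2 and 104 RPKM in P3 DKO, against 94.2 and 91.2 RPKM in P3 Ctrl. Both Suz12 and Kdm2b kept the groups apart without passing.

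Of the 43 other genes none passed at postnatal day 3 in limma, and 13 had an unadjusted p under 0.05, against 24.5% of all tested genes. With median centring 3 were lower and past the threshold. By the highest mean level, the PRC2 genes Rbbp7 and Rbbp4, histone-binding subunits shared with other complexes, averaged 141 ± 13.6 RPKM and 59.8 ± 2.93 RPKM in P3 DKO, against 157 ± 10.6 RPKM and 89.3 ± 12.5 RPKM in P3 Ctrl. The most abundant PRC1 gene of the list, Pcgf5, averaged 94.9 ± 15.2 RPKM in P3 DKO and 114 ± 8.94 RPKM in P3 Ctrl, and Bap1, the catalytic H2A deubiquitinase, 84.4 ± 8.70 RPKM in P3 DKO and 92.1 ± 0.614 RPKM in P3 Ctrl. Of the S phase genes in the same libraries, 10 of 20 fell, against 2.29% of all tested genes, and none rose, with a median log2 change of -0.61. Their mean log2 level was 5.47 and 5.39 in P3 DKO, against 5.88 and 6.19 in P3 Ctrl. The part of these genes in the polycomb values was not tested.

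In the single knockouts, which share the P3 Ctrl libraries with P3 DKO, no member passed in limma. Over all tested genes 0.0338% passed in P3 Jmjd1aKO and 0.0203% in P3 Jmjd1bKO. The members' median log2 change was -0.11 in P3 Jmjd1aKO and -0.05 in P3 Jmjd1bKO. In P3 Jmjd1aKO, 2 members had an unadjusted p under 0.05, against 10% of all tested genes. Jarid2 averaged 55.4 ± 5.36 RPKM in P3 Jmjd1aKO and 72.8 ± 6.92 RPKM in P3 Ctrl (-0.39, adjusted p = 0.410), and Eed 39.3 ± 5.15 RPKM in P3 Jmjd1aKO and 46.8 ± 1.84 RPKM in P3 Ctrl (-0.25, adjusted p = 0.484). Without the Sertoli-high replicate 2 of P3 Jmjd1aKO and of P3 Jmjd1bKO, the Jarid2 change was -0.29 (adjusted p = 0.481) and that of Eed -0.12 (adjusted p = 0.687). In P3 Jmjd1bKO no member had such a p, against 1.81% of all tested genes, and Jarid2 averaged 72.2 ± 9.89 RPKM. For Jarid2 the P3 means ran 49.9 ± 0.317 RPKM in P3 DKO, 55.4 ± 5.36 RPKM in P3 Jmjd1aKO, 72.2 ± 9.89 RPKM in P3 Jmjd1bKO, 72.8 ± 6.92 RPKM in P3 Ctrl and 82.4 ± 1.52 RPKM in P3 WT. Among neighbours in this order, P3 Jmjd1bKO and P3 Ctrl overlapped and the others did not. Without the Sertoli-high replicates, P3 Jmjd1aKO was at 59.1 RPKM and P3 Jmjd1bKO at 79.2 RPKM, which puts P3 Jmjd1bKO above the P3 Ctrl mean and so turns the order of those groups.

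By label, P3 Ctrl differs from P3 WT by the Cre and by 1 deleted copy of each gene. No member passed in limma, against 0.704% of all tested genes, and 2 had an unadjusted p under 0.05, against 26.6%. The members' median log2 change was -0.18, against 0.02 over all tested genes. Suz12 had 43.9 and 42.5 RPKM in P3 Ctrl, against 55.0 and 64.1 RPKM in P3 WT (-0.45, adjusted p = 0.102). Eed had 45.5 and 48.1 RPKM in P3 Ctrl, against 55.5 and 58.6 RPKM in P3 WT (-0.28, adjusted p = 0.152). In both genes the groups were apart. In all, 7 of 10 members were lower in P3 Ctrl with no overlap, where 29.5% of all tested genes were, and 1 was higher, where 34.0% were. The P3 WT libraries were also the shallowest. They had 7125 and 7293 genes listed at 0, against 4419 and 4843 in P3 Ctrl. The most were in P7 DKO replicate 2, at 7745. The mean log2 level of the 20 S phase genes was 5.88 and 6.19 in P3 Ctrl, against 6.32 and 6.34 in P3 WT. Of these 20 genes, 14 were lower in P3 Ctrl with no overlap and 0 higher. The Sertoli marker Amh averaged 3.47 ± 0.532 RPKM in P3 Ctrl and 19.6 ± 4.21 RPKM in P3 WT, while Sox9 and Wt1 overlapped. The parts of depth, S phase genes and Sertoli cells in the member values were not tested.

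Between the ages, P7 Ctrl and P3 Ctrl differed in no member past the threshold in limma, while 23.3% of all tested genes passed and the members' median log2 change was -0.05. Kdm6a had 8.42 and 7.49 RPKM in P7 Ctrl, against 4.91 and 4.62 RPKM in P3 Ctrl (0.63, adjusted p = 0.0620), and Eed 56.9 and 57.0 RPKM in P7 Ctrl, against 45.5 and 48.1 RPKM in P3 Ctrl (0.28, adjusted p = 0.0933). These were the 2 members with an unadjusted p under 0.05, against 39.4% of all tested genes, and neither overlapped between the ages. Of the 43 other genes 8 were higher and 2 lower in P7 Ctrl, against 9.94% and 13.4% of all tested genes, but with 1 library left out the higher count ran from 0 to 5. Ring1 averaged 9.55 ± 0.250 RPKM in P7 Ctrl and 3.81 ± 0.117 RPKM in P3 Ctrl (1.13, adjusted p = 0.0111), Aebp2 15.3 ± 0.542 RPKM in P7 Ctrl and 9.30 ± 0.593 RPKM in P3 Ctrl (0.66, adjusted p = 0.0138), and Ezhip 13.9 ± 0.0334 RPKM in P7 Ctrl and 21.1 ± 0.722 RPKM in P3 Ctrl (-0.57, adjusted p = 0.0184). Each call was lost without P3 Ctrl replicate 1, P7 Ctrl replicate 1 or P7 Ctrl replicate 2, with adjusted p up to 0.0775 for Ring1, 0.0960 for Aebp2 and 0.102 for Ezhip, which was also lost without P3 Ctrl replicate 2.

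P7 DKO against P3 DKO gave 6 of 10 members past the threshold in limma, where 58.3% of all tested genes passed, and a median log2 change of 0.17 against -0.03 over all tested genes. The 3 core PRC2 genes Ezh2, Eed and Suz12 and the demethylase Kdm6a rose, and Kdm2b and Ezh1 fell, 4 higher against 27.8% of all tested genes and 2 lower against 30.5%. Ezh2 had 41.7 and 47.0 RPKM in P7 DKO, against 18.1 and 21.9 RPKM in P3 DKO, a log2 change of 1.11 ± 0.34 (adjusted p = 0.0176). Kdm2b had 60.5 and 46.4 RPKM in P7 DKO, against 100.2 and 104 RPKM in P3 DKO (-0.93 ± 0.14, adjusted p = 0.000508). In neither gene did the ages overlap. The Kdm2b call held under every alternative, and the Ezh2 call was lost without P3 DKO replicate 1 (0.0926) or P7 DKO replicate 2 (0.0829).

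The other 4 changes also leaned on single libraries. Suz12 averaged 52.2 ± 8.30 RPKM in P7 DKO and 35.8 ± 5.77 RPKM in P3 DKO (0.53, adjusted p = 0.00942), and Eed 57.0 ± 7.14 RPKM in P7 DKO and 43.1 ± 0.275 RPKM in P3 DKO (0.39, adjusted p = 0.0131). Kdm6a averaged 10.1 ± 4.15 RPKM in P7 DKO and 5.36 ± 0.682 RPKM in P3 DKO (0.76, adjusted p = 0.0134) and Ezh1 40.1 ± 12.1 RPKM in P7 DKO and 54.8 ± 4.13 RPKM in P3 DKO (-0.47, adjusted p = 0.0297). Without P3 DKO replicate 1 the calls of Eed (0.0507) and Ezh1 (0.143) were lost, and without P3 DKO replicate 2 those of Eed (0.0568), Suz12 (0.0849), Kdm6a (0.0836) and Ezh1 (0.0560). Without P7 DKO replicate 1 those of Suz12 (0.0716) and Kdm6a (0.0788, at a change of 0.37) were lost, and without P7 DKO replicate 2 those of Eed (0.0977, at 0.26) and Ezh1 (0.211, at -0.17). Quantile normalization ended the calls of Eed (0.376, at 0.13) and Suz12 (0.111).

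Of the 43 other genes 14 were higher and 9 lower in P7 DKO than in P3 DKO, against 27.8% and 30.5% of all tested genes. Ring1 averaged 17.8 ± 2.37 RPKM in P7 DKO and 4.69 ± 0.00653 RPKM in P3 DKO (1.72 ± 0.24, adjusted p = 0.000285). Aebp2 averaged 26.8 ± 2.46 RPKM in P7 DKO and 9.43 ± 0.278 RPKM in P3 DKO (1.41 ± 0.15, adjusted p = 8.23e-05), and Rbbp4 119 ± 2.28 RPKM in P7 DKO and 59.8 ± 2.93 RPKM in P3 DKO (0.98 ± 0.14, adjusted p = 0.000356). Yaf2, a PRC1 subunit related to RYBP, averaged 21.04 ± 0.164 RPKM in P7 DKO and 10.7 ± 0.177 RPKM in P3 DKO (0.92 ± 0.12, adjusted p = 0.00024). Bap1 averaged 61.6 ± 2.40 RPKM in P7 DKO and 84.4 ± 8.70 RPKM in P3 DKO (-0.44 ± 0.09, adjusted p = 0.00285). These 5 calls held without each library of the comparison, with no overlap between the ages.

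Ezh2, Eed and Suz12 went with the S phase genes across the libraries. The mean log2 level of the 20 S phase genes was 6.36 and 6.31 in P7 DKO, against 5.47 and 5.39 in P3 DKO, and 18 of the 20 rose, against 27.8% of all tested genes. Over all 14 libraries, which share groups and replicate numbers, Pearson's r with that mean was 0.78 for Suz12, 0.74 for Ezh2, 0.62 for Eed and -0.65 for Kdm2b. These are descriptions, and the part of S phase genes in the changes of the members was not tested.

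Whether the double knockout did the same at both ages was tested as the difference between the 2 changes. Kdm2b was the 1 of 10 members past the threshold in limma, against 22.9% of all tested genes. Its log2 change was -0.80 at postnatal day 7 and 0.14 at postnatal day 3, a difference of -0.94 ± 0.20 (adjusted p = 0.0105) that held without each library. Suz12 differed by 0.62 ± 0.20 (adjusted p = 0.0505) and Rnf2 by 0.48 ± 0.16 (adjusted p = 0.0606), just outside the threshold. Without P3 DKO replicate 1 or P7 DKO replicate 2, Suz12 was inside it (0.0342 or 0.0328). Of the 43 other genes 7 differed upwards and 5 downwards, against 12.2% and 10.7% of all tested genes.

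Paralogues of 1 complex can be set against each other within a library. The ratio of Ezh1 to Ezh2 was 1.17 and 0.672 in P7 DKO, against 1.46 and 1.45 in P7 Ctrl, and 3.19 and 2.37 in P3 DKO, against 3.48 and 1.92 in P3 Ctrl and 1.70 and 1.90 in P3 WT. P7 DKO replicate 2 was the 1 library in which Ezh2 exceeded Ezh1. The ratio of Rnf2 to Ring1 was 2.78 and 2.35 in P7 DKO, against 3.50 and 3.42 in P7 Ctrl, and 8.46 and 7.64 in P3 DKO, against 10.6 and 9.79 in P3 Ctrl. Both postnatal day 7 groups thus lay below all P3 libraries in that ratio. Kdm6b exceeded Kdm6a in all 14 libraries.

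**Figure D4:**
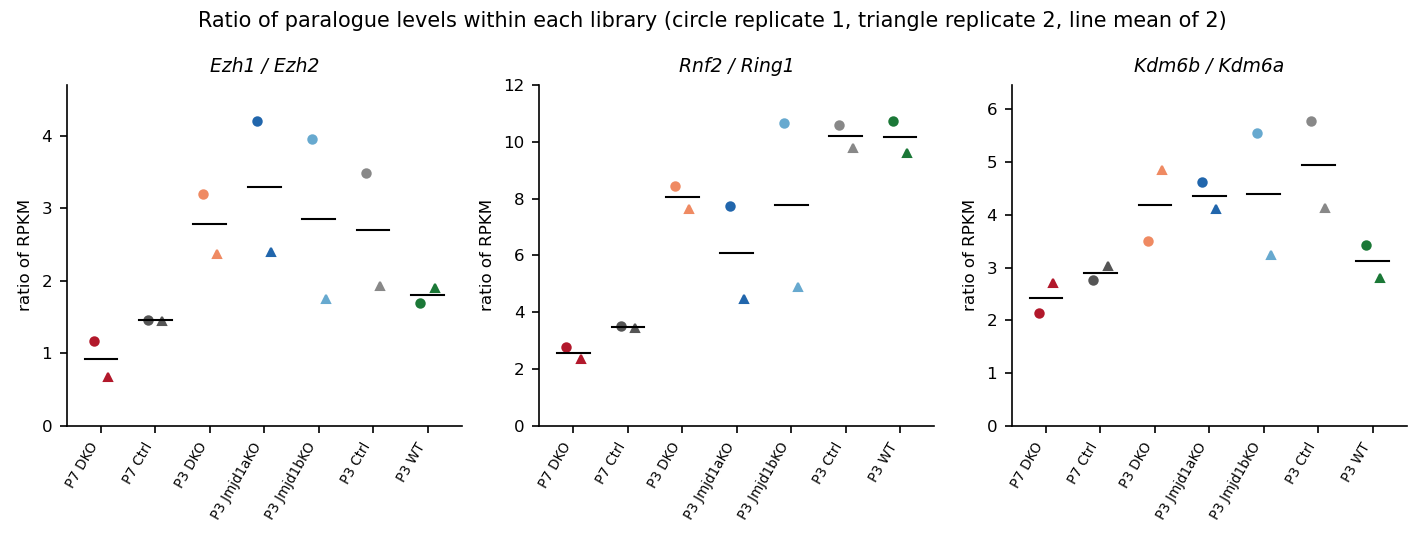
Ratio of RPKM values within each library for Ezh1 over Ezh2, Rnf2 over Ring1 and Kdm6b over Kdm6a, with groups from P7 DKO on the left to P3 WT on the right. Circles are replicate 1, triangles replicate 2 and lines the group mean. The Rnf2 to Ring1 ratio lies at 2.35 to 3.50 in the postnatal day 7 libraries.

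Ezh2 also split by replicate number. In the 4 Vasa-Cre groups at postnatal day 3, Ezh2 ran from 15.6 to 18.1 RPKM in the replicates numbered 1 and from 21.9 to 31.9 RPKM in those numbered 2, without overlap. Pecam1, an endothelial marker, ran the other way. It was at 8.93 to 17.4 RPKM in the replicates numbered 1 and 5.32 to 7.95 RPKM in those numbered 2. The other endothelial markers, Cdh5, Kdr, Tek and Tie1, overlapped between the replicate numbers, and in P3 DKO each was higher in replicate 2. Without the groups high in Sertoli markers, Ezh2 in replicate 2 was at 21.9 RPKM in P3 DKO and 29.1 RPKM in P3 Ctrl. Both values lay above Ezh2 in all replicates numbered 1 of the 4 Vasa-Cre groups. The PRC2 gene Mtf2 split in the same direction as Ezh2, at 20.3 to 22.6 RPKM in replicates numbered 1 and 26.6 to 38.1 RPKM in those numbered 2. The share of all tested genes that split in this way was not counted. The labels do not say what the numbers share.

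The levels of 25 textbook polycomb targets were followed, of which 13 passed the filter and 12 were too low. These values are RNA levels and hold no histone mark. T, Cdkn2a and Lhx2 averaged 18.0, 89.6 and 15.1 RPKM in P7 Ctrl. Whether the changes of the targets reflect polycomb silencing was not tested. In P7 DKO 1 rose and 3 fell, against 17.4% and 16.1% of all tested genes, which puts the count near the background. T, which encodes brachyury, had 0.671 and 0.361 RPKM in P7 DKO, against 18.5 and 17.6 RPKM in P7 Ctrl, a log2 change of -3.66 ± 0.20 (adjusted p = 6.67e-06) that held without each library. Cdkn2a, the cell cycle inhibitor locus, averaged 108 ± 5.06 RPKM in P7 DKO and 89.6 ± 0.0455 RPKM in P7 Ctrl (0.27, adjusted p = 0.0268). The developmental regulator Lhx2 averaged 9.44 ± 2.20 RPKM in P7 DKO and 15.1 ± 0.1998 RPKM in P7 Ctrl (-0.64, adjusted p = 0.0329), and Tbx3 1.17 ± 0.0433 RPKM in P7 DKO and 3.15 ± 0.0808 RPKM in P7 Ctrl (-0.94, adjusted p = 0.0377). All 3 calls were lost without P7 DKO replicate 2, with adjusted p of 0.126 for Cdkn2a, 0.210 for Lhx2 and 0.1302 for Tbx3. Without 1 P7 Ctrl replicate they were lost too, with adjusted p up to 0.124 for Cdkn2a, 0.131 for Lhx2 and 0.142 for Tbx3, and Tbx3 was also lost without P7 DKO replicate 1 (0.0998).

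In P3 DKO 2 of the 13 tested targets rose and none fell, against 2.18% and 2.29% of all tested genes. Hoxc8, a homeobox gene, averaged 2.49 ± 1.37 RPKM in P3 DKO and 0.327 ± 0.169 RPKM in P3 Ctrl (1.34, adjusted p = 0.0317). The Hoxc8 call was lost without P3 DKO replicate 2 (0.215) or P3 Ctrl replicate 1 (0.0700) or 2 (0.201). Of all 25 targets, 19 were higher in P3 DKO with no overlap, where 30.5% of all genes in the files were. The same count was 10 in P3 Jmjd1aKO, where 15.3% of all genes were, and 1 in P3 Jmjd1bKO, where 7.97% were. It was 21 in P3 Ctrl against P3 WT, where 30.8% of all genes were. In the P3 WT libraries, the shallowest, 9 and 8 of the 25 targets were listed at 0, against 0 in each P3 Ctrl library. The part of depth in these counts was not tested. Of the olfactory receptor genes, most of which are silent outside the nose, 16.2% and 15.2% were above 0 in the P3 DKO libraries, against 8.89% and 6.99% in P3 Ctrl, and the part of such low-level signal in the target values was not tested.

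Across the 14 libraries, the genes whose log2 levels followed each member most closely among 9903 genes were taken by Pearson's r, as a description over libraries that share groups. For Kdm2b they were Ccdc120 (0.978), Bzrap1 (0.972) and Prickle1 (0.971), and for Ezh2 Las1l (0.982), Tra2a (0.981) and Ddx17 (0.979). Suz12 was closest to Api5 (0.970), Eed to Dcun1d1 (0.972), Jarid2 to Sema4d (0.965), Ezh1 to Ptpn11 (0.951) and Rnf2 to Mpp6 (0.942). Kdm6a was closest to Opa1 (0.919) and Kdm6b to Nomo1 (0.802), the loosest of those named.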

How the data were processed

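Per the submitters' processing notes, the tools named are TopHat2 2.1.1 and Cufflinks 2.1.1 on build mm10; the annotation and the use of strand in counting are not given in the sources used here. Per the labels, RNA came from a Qiagen AllPrep Micro kit and libraries from a stranded TruSeq mRNA kit. The authors deposited 1 file of RPKM per gene for each of 14 libraries. Log2(RPKM + 1) was fitted with limma 3.58.1 (R 4.3.3, trended variance) on 14772 genes, those that reached 1 RPKM in 2 libraries or more, with 1 coefficient per group, all libraries (7 residual degrees of freedom), two-sided tests, and Benjamini-Hochberg adjustment over those genes within each of 8 comparisons at 0.05. A fold on this scale understates the change of low genes. The fit was tested on simulated data. Depth was estimated from the steps between low RPKM values: 70.2 to 78.7% of them came out whole to within 0.2 fragments, against 40% by chance. Coordinates are GENCODE on GRCm38, and promoters are RefSeq.

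Members and gene lists were chosen with earlier results of these data known. Named are all members, up to 5 called genes with the largest change per list and comparison (where none passed, the 2 of highest mean), the 3 closest genes to each member, and the deleted genes. The alternatives were another pseudocount, no filter, 2 other scalings, the replicate number as a block, only the groups compared, and each library left out. Some results that this rule covers are not reported here.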

Additional observations from a re-analysis of the deposited data

Results flagged for a closer look

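The change of P7 DKO against P7 Ctrl and that of P3 DKO against P3 Ctrl were compared by a limma interaction term across all tested genes, and 13 of the 10 members and 43 other genes of the same complexes passed an adjusted p of 0.05. Over all tested genes 22.9% passed, so the count is near the background. The values below are log2 changes at postnatal day 7 minus those at postnatal day 3.

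Kdm2b differed by -0.94 (adjusted p = 0.0105). Among PRC2 genes, Ezhip differed by 1.58 (0.00111), with a change of 1.87 at postnatal day 7 and 0.28 at postnatal day 3. Rbbp4 differed by 0.78 (0.0211), Aebp2 by 0.75 (0.0286) and Phf1 by -1.25 (0.0270). Among PRC1 genes, Cbx7 differed by -0.95 (0.00750), with changes of -1.47 and -0.52, Phc1 by -0.83 (0.0364), Rybp by 0.77 (0.0186), Yaf2 by 0.74 (0.0143) and Usp7 by 0.90 (0.00382). In the other lists, Asxl3 differed by -1.06 (0.0168), Phf8 by -0.44 (0.0451) and Paxip1 by 0.58 (0.0497). The calls of Kdm2b, Ezhip, Cbx7 and Usp7 held whichever of the 8 libraries was left out. Those of Rbbp4, Aebp2, Phf1, Phc1, Rybp, Yaf2, Asxl3, Phf8 and Paxip1 were each lost without at least 3 of them, Paxip1 without any single one.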

How the results depend on the processing

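Kdm2b passed in each of the 3 comparisons that called it under every alternative run. The number of members past the threshold in P3 DKO against P3 Ctrl was 0 and became 1 with median centring, with the replicate number as a block and without the pair of libraries high in Sertoli transcripts. For the difference between the DKO changes it was 1, and 3 under those same 3 alternatives, 2 with only the groups compared, and 1 to 2 with 1 library left out. In P7 Ctrl against P3 Ctrl it was 0, then 1 with quantile normalization and with the block and 3 with only the groups compared. In P7 DKO against P3 DKO it was 6, and 2 to 4 with 1 library left out; in P7 DKO against P7 Ctrl it was 3, and 1 to 4. Same-numbered libraries correlated in their deviations from the group means between -0.13 and 0.58, and between 0.085 and 0.58 among the 4 Vasa-Cre groups at postnatal day 3. Not every pair exceeded 0.1, and the labels do not say what the numbers share. The block gave Ezh2 an adjusted p of 0.00483 in P7 DKO against P3 DKO, Jarid2 an adjusted p of 0.0327 in P3 DKO and Suz12 one of 0.0314 for the difference between ages. Quantile normalization turned Scml2 to -0.070 (adjusted p = 0.663) and Cdkn2a to -0.16 (adjusted p = 0.0738) in P7 DKO against P3 DKO.

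Over all genes, the 661 calls of P3 DKO against P3 Ctrl ran from 8 without P3 Ctrl replicate 2 to 1914 without the Sertoli-high pair, and the 104 of P3 Ctrl against P3 WT from 3 to 2199. The 3441 of P7 Ctrl against P3 Ctrl ran from 485 to 5220, the 4954 of P7 DKO against P7 Ctrl from 2600 to 5905 and the 3383 of the difference from 1627 to 4659. The 5 calls of P3 Jmjd1aKO ran from 3 to 12 and the 3 of P3 Jmjd1bKO from 2 to 15. Median centring moved the higher and lower calls of P3 DKO to 277 and 503, against 322 and 339, those of the difference to 2269 and 1250, against 1800 and 1583, and those of P3 Ctrl against P3 WT to 50 and 55, against 60 and 44. Quantile normalization moved those of P7 Ctrl against P3 Ctrl to 1587 and 1424, against 1468 and 1973. Of 80 member changes 38 switched sign under at least 1 alternative, 0 of them called.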
